A study of Mus musculus with 19 samples.

Results

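Cyclins, cyclin-dependent kinases (CDKs), their inhibitors, and the genes of DNA replication and mitosis were examined in liver and duodenum of 2 mouse models of iron overload. The set held 40 genes named by symbol from their known place in the cell cycle. A gene was measured when the signal file held a probe that the platform annotation, or a current alias, ties to its symbol alone, which was the case for 37 of the 40, out of 17709 gene symbols on the array. These 37 genes had 81 of the 46632 distinct probes, and where a gene had several (25 genes), the probe with the highest mean signal in the tissue was used. No probe was tied to Mcm3, Ccnb1 or Mki67, so that the proliferation marker Ki-67 was not analysed here.

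All mice were C57BL/6 males, and each of the 19 Illumina Sentrix Mouse-6 arrays held RNA of 1 mouse and 1 tissue. In the first experiment Hfe-/- mice, which lack the hemochromatosis protein from the germline in every cell, were set against wild-type mice (3 against 2 livers, 2 against 2 duodena). In the second experiment wild-type mice given a diet supplemented with carbonyl iron were set against mice on the control diet (3 against 2 in each tissue). The question was how gene expression responds to loss of Hfe and to dietary iron overload. By the labels, Hfe-/- mice were 10 to 12 weeks old, their wild-type controls 12 to 14, and the mice of both diets 16 to 18. Within a tissue every Hfe-/- mouse is labelled younger than every wild-type mouse, so that age and genotype cannot be told apart if the labels hold. These ages step up by 1 week with each array of a tissue, while the study's methods give both genotypes the same age, and which of the sources is right is not known. A whole piece of tissue went onto each array. Fewer cells of a type and less RNA per cell therefore cannot be told apart in any value below.

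A cell that divides passes from G1, in which D-type cyclins with Cdk4 prepare entry into S phase, through DNA replication to mitosis. In G1, the Mcm2 to Mcm7 helicase is loaded onto replication origins by Cdc6 and Cdt1. The S-phase genes are switched on by E2F factors, and the mitotic genes later, through CCAAT boxes and the cell cycle homology region of their promoters. CDK inhibitors such as p21, the product of Cdkn1a and a target of p53, hold the cycle back. Adult hepatocytes are mostly quiescent and divide after injury or loss of tissue, whereas the crypts of the intestine divide throughout life.

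The promoters of 5 members are printed because their genes were called higher in duodenum than in liver, as described below, and stand for the mitotic genes and for the helicase. They are RefSeq sequences of the GRCm38.p6 build, on the strand of the gene, and end at or before its outermost annotated start. Capitals mark matches, on either strand, to CCAAT, to the cell cycle homology region (TTTGAA or TTCGAA) or to an E2F site (TTTGGCGC, TTTCCCGC, TTTCGCGC, TTTGCCGC, TTTGGCGG or TTTCCCGG). Overlapping matches merge into 1 run of capitals.
Cdk1, chr10:69352913-69353072, minus strand: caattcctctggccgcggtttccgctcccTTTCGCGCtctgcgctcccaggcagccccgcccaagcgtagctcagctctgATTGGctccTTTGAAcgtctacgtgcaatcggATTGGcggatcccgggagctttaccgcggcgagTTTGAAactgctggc
Cdc20, chr4:118437344-118437503, minus strand: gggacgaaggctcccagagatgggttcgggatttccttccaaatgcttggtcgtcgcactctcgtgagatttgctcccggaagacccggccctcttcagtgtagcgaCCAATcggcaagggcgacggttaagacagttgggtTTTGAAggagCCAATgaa
Top2a, chr11:99024200-99024349, minus strand: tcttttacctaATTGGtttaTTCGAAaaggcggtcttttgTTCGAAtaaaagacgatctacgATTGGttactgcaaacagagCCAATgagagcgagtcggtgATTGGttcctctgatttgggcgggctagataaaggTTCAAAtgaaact
Mcm5, chr8:75109349-75109467, plus strand: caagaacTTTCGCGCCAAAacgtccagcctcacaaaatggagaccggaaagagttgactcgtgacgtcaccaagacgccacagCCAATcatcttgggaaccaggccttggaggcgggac
Mcm6, chr1:128359706-128359865, minus strand: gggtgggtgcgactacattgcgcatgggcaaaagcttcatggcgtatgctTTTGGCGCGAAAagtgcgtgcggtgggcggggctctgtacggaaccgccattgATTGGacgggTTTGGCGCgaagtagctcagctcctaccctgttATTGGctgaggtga

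The stretches of Cdc20 and Top2a held CCAAT boxes and the cell cycle homology region but no E2F match. Those of Mcm5 and Mcm6 held CCAAT boxes and E2F matches but no cell cycle homology region. That of Cdk1, the mitotic kinase, held all 3. A window from 250 bases before to 50 after the start was at hand for 32 members, in 35 windows. A CCAAT box lay in 65.7% of these windows and in 37.4% of the 32851 windows of all genes. An E2F match lay in 28.6% against 3.98%, the cell cycle homology region in 34.3% against 19.2%, and CCAAT box and homology region together in 34.3% against 7.52%. The cell cycle homology region was found in 10 of the 14 mitotic members with a window, in 2 of the 8 members of origin licensing and replication, and in none of the 6 G1 or 4 nucleotide synthesis members. E2F matches were found in 6 of the 8 licensing and replication members and in 3 of the 14 mitotic members. A match is a stretch of letters and was not tested as a binding site.

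The arrays detected 12846 to 14369 probes in liver and 13936 to 16965 in duodenum, at a detection p below 0.05. Log2 bead signals, quantile-normalized within a tissue, correlated with those of the other arrays of the same group at a mean r of 0.988 to 0.991 in liver and 0.971 to 0.987 in duodenum. Hepatocyte markers were strong in liver, with 4 of 6 detected and a summed signal of 47000 to 58580, and all 6 goblet cell markers and 3 of 4 enterocyte markers with a probe were detected in duodenum. A single duodenal array stood apart. The 6 pancreatic acinar markers with a probe, all detected, summed to 2154 in wild-type replicate 2, against 99260 to 140000 on the 8 other duodenal arrays, so that results resting on this array are given with and without it. The Hfe probe does not check the genotype labels. It was detected on 2 of 3 Hfe-/- and all 7 other liver arrays and on no duodenal array, and where it lies relative to the disrupted part is not known.

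Far more cell cycle genes were detected in duodenum than in liver. Of the 37 members, 28 were detected on every duodenal array, 5 on some and 4 on none, whereas in liver 15 were detected on every array, 10 on some and 12 on none. Single arrays detected 28 to 32 members in duodenum and 18 to 22 in liver. The 12 members below detection on all 10 liver arrays were mostly genes of S phase and mitosis: the cyclins Ccna2, Ccnb2 and Ccne2, the kinases Cdk1, Aurkb, Bub1b and Chek1, the anaphase factors Cdc20 and Ube2c, the DNA topoisomerase Top2a, the microtubule protein Stmn1 and the CDK inhibitor Cdkn1b. Ccna2, Ccnb2, Chek1 and Ube2c were below detection in duodenum as well, also in that renewing tissue, and their probes thus gave no level in any group.

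The 4 untreated duodena (wild type and control diet) were compared with the 4 untreated livers, all arrays being normalized together and the experiment being a covariate. The duodenum had higher levels of most members. Of 31 members tested, 22 were called higher in duodenum and 2 lower (limma, Benjamini-Hochberg adjusted p below 0.05 over all probes), while 48.7% of the 18348 probes tested were called and 24.7% were called higher in duodenum. The median log2 difference of the members was 0.66, against 0.0002 for all probes. Of the 16 members detected on all 8 arrays, which could not enter through 1 tissue alone, 10 were called higher and 2 lower. The groups did not overlap for 20 members that were higher and 1 that was lower, against 23.4% and 22.7% of all probes. Tests treated the arrays as independent, although liver and duodenum may come from the same mice.

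Of 10 mitotic genes tested, 8 were called higher in duodenum. Of these, 6 were undetected in all 4 livers and so entered the test through duodenum alone. Aurka, detected on 1 of 4 livers, also passed the filter only through duodenum. The 1 mitotic member detected on all 8 arrays, Bub1, was not called. Cdk1, the kinase that drives entry into mitosis, had log2 signals of 7.17 and 7.27 in the wild-type duodena and 7.37 and 7.35 in the control diet duodena, and was undetected in all 4 livers. Its level in duodenum was at least 1.55-fold higher. For this bound the undetected side was set at the lowest signal of a detected probe, or at its own signal where that was higher. The test used the measured signals, not the bound (log2 difference 0.96, adjusted p = 3.82e-06, limma). The adjusted p values of Top2a and Birc5 below are likewise of measured signals. Top2a, which untangles replicated DNA, measured 7.69, 7.47, 7.72 and 7.98 on the same duodenal arrays and was also undetected in every liver, a difference of at least 2.08-fold (adjusted p = 7.92e-06, limma). Birc5, which encodes the inhibitor of apoptosis and mitotic regulator survivin, was at least 2.83-fold higher (adjusted p = 1.83e-05, limma). Cdc20, the activator of the anaphase-promoting complex, was at least 1.92-fold higher, the spindle checkpoint kinase Bub1b at least 1.36-fold and Aurkb at least 1.21-fold. Where a gene had several probes, these bounds hold for the brightest. Other tested probes, also undetected in all 4 livers, gave log2 differences of 0.37 and 0.31 for Cdc20, 0.45 for Top2a and 1.67 and 1.25 for Birc5. Plk1, a kinase of spindle assembly, was detected on 3 of the 4 livers, at 6.74 to 6.84, and measured 9.01, 8.61, 8.44 and 8.92 in duodenum. It was 3.97-fold higher there (log2 difference 1.99, SE 0.13, adjusted p = 9.41e-06, limma). The other tested Plk1 probe, detected on 1 untreated duodenum and 1 untreated liver, gave 0.02 (adjusted p = 0.78, limma). The spindle gene Tacc3 and the checkpoint kinase Bub1 differed by 0.06 and 0.02 on the log2 scale and did not pass the test. Their probes were weak, at mean bead signals of 98 and 104 over all liver and 114 and 126 over all duodenal arrays. The other Bub1 probe was detected on no array, so that differences near background could be missed.

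Of the origin licensing and replication genes, 8 of 9 tested were called higher in duodenum. Mcm5, a helicase subunit, had log2 signals of 9.72 and 9.03 in wild-type duodenum, 8.65 and 9.18 in control diet duodenum, 7.25 and 7.78 in wild-type liver and 6.91 and 7.15 in control diet liver, so that the tissues did not overlap (log2 difference 1.87, SE 0.20, 3.66-fold, adjusted p = 0.000137). The other subunits Mcm4 (1.25), Mcm6 (1.09), Mcm2 (0.73, detected on 3 of 4 livers) and Mcm7 (0.66), the loading factors Cdt1 (1.0) and Cdc6 (0.22, detected on 2 of 4 livers) and Gins2 (0.47), a subunit of the GINS complex that works with the helicase, were higher on the log2 scale. The exception was Pcna, the sliding clamp of the DNA polymerase, with a difference of 0.01 (SE 0.10, adjusted p = 0.970). Its 1 probe was weak, at mean bead signals of 102 over all liver and 124 over all duodenal arrays. It was detected on 2 of 4 untreated livers, so that a difference near background could be missed. Among the nucleotide synthesis genes, Rrm1, the large subunit of ribonucleotide reductase, was 0.87 higher in duodenum (SE 0.12) and Tyms, thymidylate synthase, 0.59 higher, whereas Tk1, thymidine kinase, was 0.30 lower (SE 0.10, adjusted p = 0.0423) and Rrm2 did not pass the test. The Tk1 call was lost in 10 of 15 alternative settings, with adjusted p up to 0.138, and its other tested probe gave -0.04.

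Of 8 G1 members tested, 7 had higher means in duodenum, and 4 were called higher and 1 lower. Ccnd2, cyclin D2, measured 10.34 and 10.99 in wild-type duodenum and 10.04 and 10.10 in control diet duodenum, against 7.87 and 7.87 in wild-type liver and 7.97 and 8.04 in control diet liver, a 5.40-fold difference (log2 2.43, SE 0.18, adjusted p = 2.22e-05, limma). For Cdk4, its kinase partner, the direction depended on the probe. The brightest probe measured 9.14 to 9.33 in duodenum and 10.86 to 11.58 in liver (log2 difference -1.94, SE 0.15, adjusted p = 2.2e-05), whereas the other Cdk4 probes were higher in duodenum, by 0.51 (adjusted p = 0.00168, limma) and 0.31 (adjusted p = 0.0276). Of the 15 members with several tested probes, 13 had all of them on 1 side, the exceptions being Cdk4 and Ccnd1. The size of the difference still varied between probes of a gene, as for Plk1 and Cdc20 above. Cdkn1a was called higher in duodenum (log2 difference 2.11, adjusted p = 0.00189), but it was detected on only 2 of 4 livers, those of the control diet, and the tissues overlapped because 1 of these reached 9.05. Cdk2 was also called higher (0.48, adjusted p = 0.0371), a call lost in 10 of 15 alternative settings (adjusted p up to 0.373). The inhibitor Cdkn1b was called too, but it was undetected in every liver and on 1 of 4 duodena, so that no fold is given, and its call was lost in 9 of 13 settings (adjusted p up to 0.281). Ccnd1, cyclin D1, did not pass the test (0.52, SE 0.21, adjusted p = 0.073). Without wild-type duodenum replicate 2, 22 members were called and the median was 0.72. Among related genes outside the set, 7 of 18 other G1 regulators tested were called higher in duodenum, 4 of 15 p53 targets higher and 4 lower, and 5 of 16 growth factor and Wnt genes higher and 4 lower. Of the others, 16 of 33 other replication genes tested were called higher in duodenum and 2 lower, and 22 of 28 other mitotic genes higher and 1 lower. Of all probes, 24.7% were called higher in duodenum. A gene could enter this test through duodenum alone. Of 43 other mitotic genes with a probe, 28 were tested here, against 14 and 11 in the liver comparisons of Hfe and diet. Uhrf1, which couples DNA methylation to replication, was 2.03 higher on the log2 scale and the centralspindlin kinesin Kif23 was 1.81 higher.

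**Figure D1:**
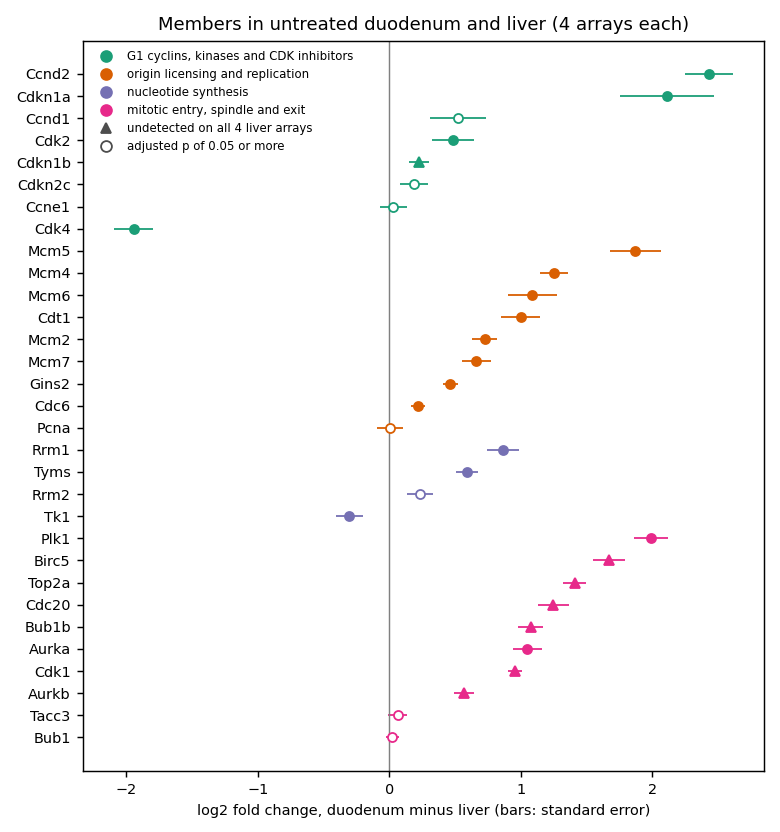
Log2 fold change of 31 members between 4 untreated duodena and 4 untreated livers, with standard errors. Positive values are higher in duodenum, triangles mark genes undetected on all 4 liver arrays, open symbols an adjusted p of 0.05 or more, and colours the role of the gene; Ccnd2 lies at 2.43 and the brightest Cdk4 probe at -1.94.

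In iron-fed mice 1 member passed the threshold in liver: cyclin D1 mRNA was 4.44-fold higher than on the control diet, alone among 21 members tested. This share stands against 2.17% of all 14919 probes called, 169 higher and 155 lower. The members as a whole were centred near 0, with 13 positive and 8 negative log2 fold changes and a median of 0.05 (all probes -0.01). At an unadjusted p below 0.05 there were 4 members, against 16.1% of all probes. The diet groups did not overlap for 6 members that were higher and 3 that were lower, against 15.5% and 18.1% of all probes.

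Ccnd1 (chr7:144929931-144939831, GRCm38.p6) encodes cyclin D1, the growth factor-dependent partner of Cdk4 in G1. Its log2 signals were 10.35, 11.11 and 10.57 on the iron-supplemented diet and 8.25 and 8.80 on the control diet. The groups did not overlap, and the lowest iron-fed liver exceeded the highest control by more than the range within the controls. The log2 fold change was 2.15 (SE 0.23, adjusted p = 0.007, limma). All 5 Ccnd1 probes tested were higher, the other 4 by 0.53, 1.18, 1.39 and 1.80, and 4 of the 5 passed the threshold. Without control replicate 1, whose signal was the lowest, the difference was 1.88 and its adjusted p 0.0586.

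The other G1 genes showed smaller differences or rested on single mice. Cdkn1a (chr17:29090979-29100722), which encodes p21, measured 6.94, 6.88 and 6.84 in iron-fed livers and 8.99 and 7.12 in controls, a log2 fold change of -1.17 (SE 0.45, adjusted p = 0.255). The groups did not overlap, but the size of the difference came from control replicate 1. Without that mouse it was -0.23, and without control replicate 2 it was -2.11 with an adjusted p of 0.00183. Control replicate 1 was thus the liver with the lowest Ccnd1 and the highest Cdkn1a of the diet experiment. Cdk2, the kinase of the G1 to S transition, measured 8.14, 8.32 and 8.17 against 8.50 and 8.35 (log2 fold change -0.21, SE 0.09, adjusted p = 0.299), and the difference was -0.13 without control replicate 1.

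**Figure D2:**
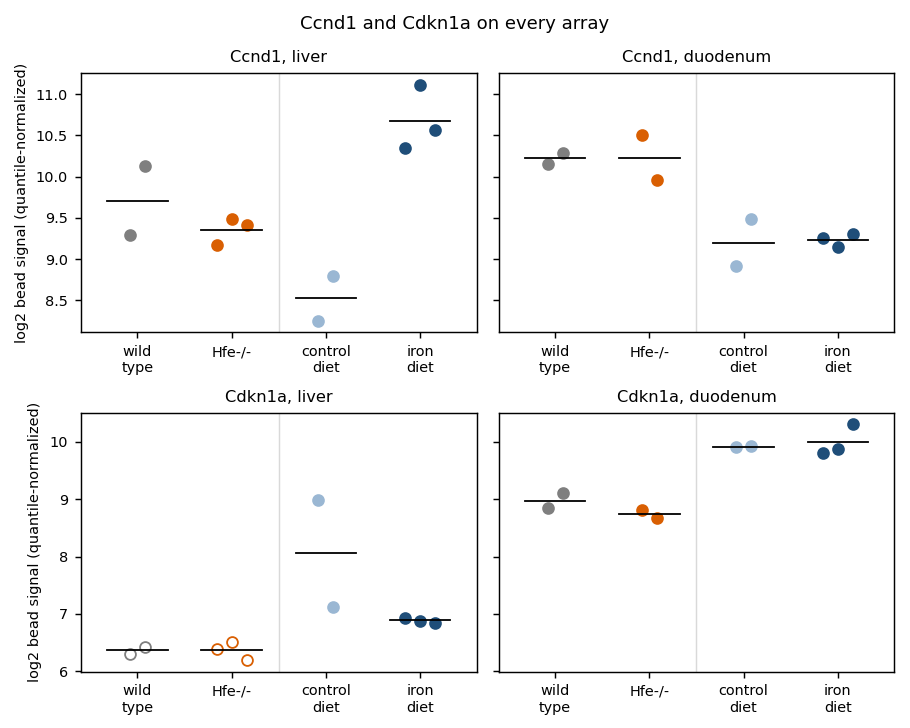
Log2 bead signal of Ccnd1 and Cdkn1a on every array of liver and duodenum, with points for mice and lines for group means. Ccnd1 lies at 10.35 to 11.11 in iron-fed livers and at 8.25 and 8.80 in their controls, and a single control liver stands out for Cdkn1a at 8.99.

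None of the replication members passed the test in iron-fed liver. Of 8 licensing and replication members tested, 7 had positive log2 fold changes, with a median of 0.10. Mcm6 had the lowest p of these (log2 fold change 0.17, adjusted p = 0.341). Pcna measured 6.77, 6.67 and 6.57 in iron-fed livers and was undetected in both controls, so that it entered the test through the iron-fed mice alone, at least a 1.09-fold difference (log2 fold change 0.16, adjusted p = 0.408, limma). Tk1 measured 7.06, 6.96 and 7.30 against 7.30 and 7.47 (log2 fold change -0.28, SE 0.11, adjusted p = 0.281), with the nearest pair almost touching. Of the mitotic genes only 3 could be tested, with a median of -0.03, and Cdk1 stayed below detection on all 10 liver arrays, at log2 signals of 6.16 to 6.35.

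Of the related genes outside the set, those placed upstream of cyclin D1 (growth factor receptors and Wnt genes) had 3 positive and 10 negative values among 13 tested, and 1 passed. This was Egfr, the epidermal growth factor receptor, which fell by 0.81 on the log2 scale (SE 0.09, adjusted p = 0.00687, limma). None of 13 p53 targets, 14 other G1 regulators, 26 other replication genes and 11 other mitotic genes passed, with medians of 0.03, -0.04, 0.04 and 0.02, while 2, 1, 2 and 0 of them had an unadjusted p below 0.05 (limma). Some markers of other cells moved with the diet in liver. The summed signal of the 3 detected neutrophil markers of 6 was 403 to 583 in iron-fed and 251 to 278 in control livers, with S100a8 higher by 1.31 (adjusted p = 0.0172) and Ltf, Mmp8 and Ngp undetected. The 2 detected enterocyte-list markers summed to 2701 to 3663 in iron-fed and 550 to 554 in control livers, with Alpi and Fabp2 undetected. Of these only Apoa4, which is also made in liver, moved (log2 fold change 2.71), the other marker being at 0.04. Alas2, the erythroid heme synthesis enzyme, was lower (log2 fold change -1.12, adjusted p = 0.00228, limma). Its list did not follow, with 2 of 3 erythroid markers tested positive and a median of 0.09. The detected erythroid markers summed to 5664 to 6535 in iron-fed and 4765 to 5965 in control livers. Cela1 of the acinar list was lower (-0.65, adjusted p = 0.00687, limma), with all 3 tested markers of that list negative. Reln of the stellate cell list was lower too (-0.68, adjusted p = 0.00952, limma), in a list with 2 positive and 2 negative values. The part of these cells in the Ccnd1 difference was not tested.

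**Figure D3:**
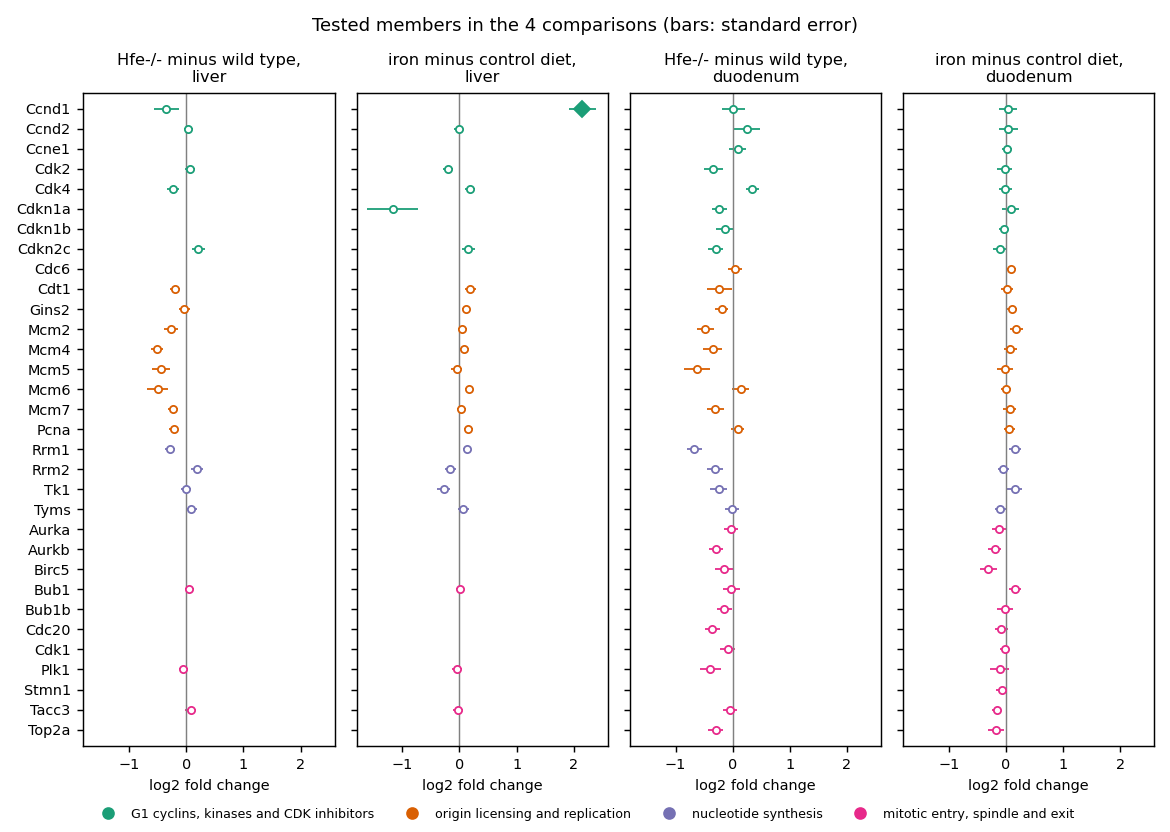
Log2 fold change with standard error of every member tested in the 4 comparisons, coloured by role. The filled diamond is the 1 member with an adjusted p below 0.05, Ccnd1 in the liver of iron-fed mice at 2.15, and all other members are open circles.

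In the liver of Hfe-/- mice no member passed the threshold among 20 tested, and 4 of 14160 probes did (0.0282%). The licensing and replication genes nevertheless all lay on 1 side. All 8 tested had lower means in Hfe-/- liver, with a median log2 fold change of -0.25, against -0.13 for all 20 members and -0.01 for all probes. The G1, nucleotide synthesis and mitotic members had medians of 0.04, 0.04 and 0.05. At an unadjusted p below 0.05 there were 7 of 20 members, against 8.94% of all probes. The genotypes did not overlap for 8 members that were lower and 2 that were higher, against 13.5% and 11.2% of all probes.

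Mcm4 (chr16:15623897-15637400), a subunit of the replicative helicase, measured 7.32, 7.14 and 7.29 in Hfe-/- and 7.63 and 7.88 in wild-type livers (log2 fold change -0.51, SE 0.10, adjusted p = 0.238, limma). Mcm5 measured 7.01, 6.82 and 7.07 against 7.15 and 7.67 (-0.44, SE 0.15, adjusted p = 0.468). Mcm6 measured 6.93, 6.76 and 7.04 against 7.07 and 7.75 (-0.50, SE 0.19, adjusted p = 0.490), while its other tested probe gave -0.06. For each of these the groups did not overlap, and wild-type replicate 2 was the highest array. Pcna measured 6.61, 6.60 and 6.66 against 6.77 and 6.92 (-0.22, SE 0.08, adjusted p = 0.50). Rrm1, which with Rrm2 makes deoxyribonucleotides, measured 6.71, 6.65 and 6.73 against 6.91 and 7.07 (-0.29, SE 0.09, adjusted p = 0.402). Ccnd1 overlapped between the genotypes, at 9.17, 9.48 and 9.41 in Hfe-/- and 9.29 and 10.13 in wild-type livers (-0.35, SE 0.22, adjusted p = 0.713), and Cdkn1a was undetected on all 5 arrays.

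These differences depended on the wild-type mice. Without wild-type replicate 2 the 20 members split into 10 positive and 10 negative values with a median of -0.04, and Ccnd1 turned to 0.07. The 8 licensing and replication members still had 7 negative values, with a median of -0.16. Without this mouse Mcm6 was at -0.16, Mcm5 at -0.18 and Mcm4 at -0.38, against -0.84, -0.70 and -0.63 without wild-type replicate 1. Without replicate 1 the median of the 20 members was -0.20, and that of the licensing and replication members -0.35. Wild-type replicate 2 also differed in other genes. The 2 detected goblet cell markers of 6 (Clca1, Fcgbp, Muc2 and Spink4 undetected) summed to 4598 in wild-type replicate 2, 301 in wild-type replicate 1 and 756 to 1758 in Hfe-/- livers, and their part in the result was not tested. Other replication genes leaned the same way, with 23 of 28 tested negative and a median of -0.14, as did other G1 regulators (14 of 16, median -0.09). None passed, and 6 and 1 had an unadjusted p below 0.05 (limma). Other mitotic genes had a median of -0.04, p53 targets -0.01 and growth factor and Wnt genes 0.01, with none called and 2, 0 and 0 at that unadjusted p. Among the marker lists, the only gene called was Apoa4, higher by 1.24 in Hfe-/- liver (adjusted p = 0.0471).

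The helicase genes varied together from mouse to mouse. After group means were removed, the 10 pairs among the 5 measured Mcm genes had a median correlation of 0.84 over the 10 liver arrays and 0.68 over the 9 duodenal arrays, and all pairs were positive in both tissues. Values of 1 array share its RNA and its normalization, so this is a description only. The mean log2 signal of the 5 genes was 6.97, 6.79 and 6.95 in Hfe-/- livers, 7.11 and 7.48 in wild-type livers, 6.84 and 6.95 on the control diet and 6.97, 6.97 and 6.90 on the iron-supplemented diet. Wild-type replicate 2 was the highest of the 10 livers.

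**Figure D4:**
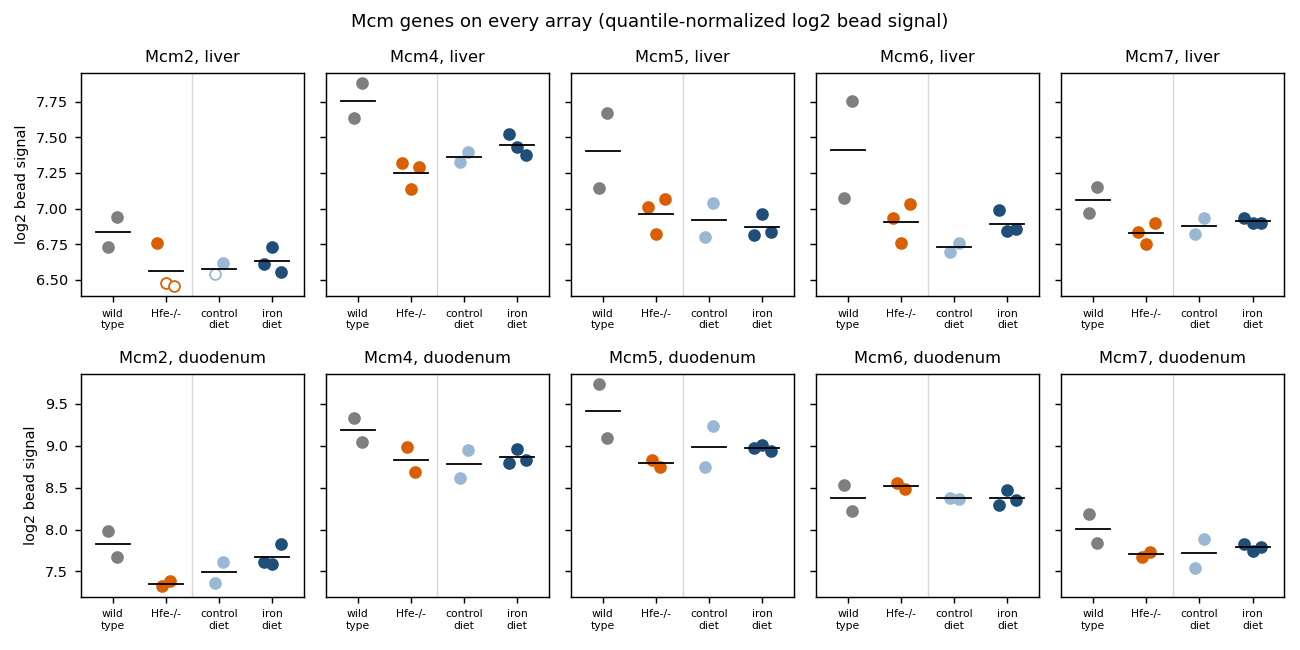
Log2 bead signal of the Mcm genes on every array, with points for mice and lines for group means. In liver, Hfe-/- mice lie below wild-type mice for Mcm4, at 7.14 to 7.32 against 7.63 and 7.88, while the diet groups lie close together.

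In the duodenum of Hfe-/- mice no member passed among 31 tested, and 1 of 16599 probes did (0.00602%). More members had lower than higher means in Hfe-/- mice, 24 against 7, with a median log2 fold change of -0.20 (all probes -0.02). All 10 mitotic and all 4 nucleotide synthesis members tested were negative, with medians of -0.15 and -0.28, as were 6 of 9 licensing and replication members (-0.23), whereas G1 members were split 4 to 4. There were 5 members at an unadjusted p below 0.05, against 6.87% of all probes. The groups of 2 mice did not overlap for 15 members that were lower and 2 that were higher, against 20.9% and 14.3% of all probes. The lean of the members depended on the scaling: when arrays were scaled to equal medians, 20 were negative and 11 positive, with a median of -0.04, while the median of all probes moved from -0.02 to 0.05.

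Rrm1 (chr7:102441695-102469771) measured 7.77 and 7.53 in Hfe-/- and 8.38 and 8.26 in wild-type duodena (log2 fold change -0.67, SE 0.13, adjusted p = 0.640, limma). Mcm2 measured 7.32 and 7.38 against 7.98 and 7.68 (-0.48, SE 0.14, adjusted p = 0.650). Mcm5 measured 8.83 and 8.75 against 9.74 and 9.09 (-0.63, SE 0.22, adjusted p = 0.688). In all 3 the genotypes did not overlap and wild-type replicate 1 was the highest of the 4 mice. Cdk4 lay on the other side, at 9.59 and 9.54 against 9.25 and 9.19 (0.34, SE 0.11, adjusted p = 0.661). Its second probe gave -0.05. Ccnd1 (10.50 and 9.95 against 10.16 and 10.28) and Cdk1 (7.37 and 7.13 against 7.29 and 7.39) overlapped, with log2 fold changes of 0.01 and -0.09. Cdkn1a measured 8.82 and 8.67 against 8.85 and 9.10 (-0.23, SE 0.14, adjusted p = 0.834). Pcna measured 6.94 and 6.97 against 6.90 and 6.84 (0.09, SE 0.11, adjusted p = 0.968).

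The wild-type duodena differed from each other in markers of other cells. Acinar markers summed to 106100 in wild-type replicate 1 and 2154 in replicate 2, against 102400 and 140000 in Hfe-/- mice, so that all 6 had positive log2 fold changes, with a median of 3.14, and none passed or had an unadjusted p below 0.05 (limma). The 4 Paneth cell markers, all detected, summed to 5985 and 10240 in Hfe-/- and 15590 and 9370 in wild-type duodena. Without wild-type replicate 2, 29 members were tested, 24 were negative and 5 positive with a median of -0.28, and 11 had an unadjusted p below 0.05. Without replicate 1 the median was -0.13 and 1 member did. Mcm5 was at -0.95 without replicate 2 and -0.30 without replicate 1, Mcm2 at -0.63 and -0.32, Rrm1 at -0.73 and -0.61 and Cdk4 at 0.31 and 0.37. Cdkn1a was at -0.11 and -0.36 in the same order, Pcna at 0.05 and 0.12, Ccnd1 at 0.07 and -0.06 and Cdk1 at -0.04 and -0.14. The part of pancreatic or Paneth cell RNA in these values was not tested. Other replication genes were negative in 27 of 33 cases (median -0.12) and other mitotic genes in 18 of 25 (median -0.10). None passed, and 2 and 3 had an unadjusted p below 0.05 (limma). Other G1 regulators, p53 targets and growth factor and Wnt genes had medians of -0.11, -0.04 and 0.01, with none called and 2, 1 and 0 at that unadjusted p.

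**Figure D5:**
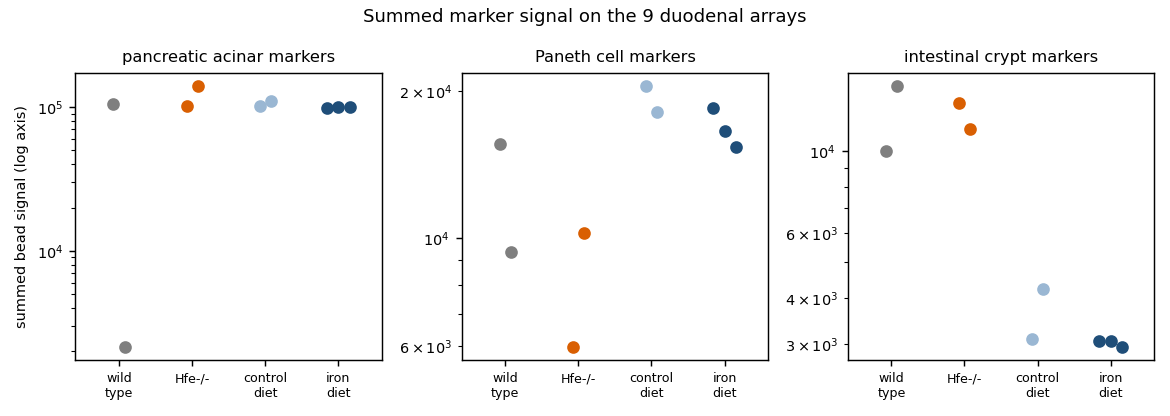
Summed bead signal of marker lists on the 9 duodenal arrays on a log axis, with a point for each mouse. Acinar markers lie at 2154 in 1 wild-type duodenum and at 99260 to 140000 in all others.

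In duodena of iron-fed mice no member passed among 32 tested, while 72 of 16373 probes did (0.44%), and no member had an unadjusted p below 0.05, against 9.88% of all probes. The values were small, from -0.31 to 0.18 on the log2 scale, with 15 positive, 17 negative and a median of -0.01 (all probes 0.01). Only 2 members that were higher and 2 that were lower had groups that did not overlap, against 15% and 12.1% of all probes. Of the mitotic members, 10 of 11 were negative (median -0.11), and of the licensing and replication members 8 of 9 were positive (median 0.07). When arrays were scaled to equal medians, 20 members were positive and 12 negative.

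The 4 members with the lowest p were mitotic. Birc5 measured 8.15, 8.07 and 8.10 on the iron-supplemented and 8.16 and 8.67 on the control diet (log2 fold change -0.31, SE 0.15, adjusted p = 0.568, limma). Tacc3 measured 6.79, 6.75 and 6.85 against 6.95 in both controls (-0.16, SE 0.08, adjusted p = 0.584). Aurkb, the kinase of the chromosomal passenger complex that also holds survivin, measured 7.0 and 6.75 with 1 array undetected, against 6.99 and 7.05 (-0.20, SE 0.11, adjusted p = 0.618). Bub1 measured 7.02, 6.98 and 7.24 against 6.93 and 6.91 (0.16, SE 0.10, adjusted p = 0.681). The first 2 and Bub1 had groups that did not overlap, by narrow margins, and Aurkb overlapped. Birc5 rested on 1 control, being at -0.05 without control replicate 2 and -0.56 without control replicate 1, and Bub1 was at 0.08 without iron diet replicate 3. Ccnd1 measured 9.25, 9.15 and 9.30 against 8.91 and 9.49 (0.04, SE 0.16, adjusted p = 0.973), so that the iron-fed mice lay between the controls. Cdkn1a (0.09, SE 0.15), Pcna (0.06, SE 0.10) and Cdk1 (-0.02, SE 0.08) overlapped as well. None of the 31 other replication and 27 other mitotic genes tested passed, 1 of each had an unadjusted p below 0.05 (limma), and 21 of the mitotic genes were negative. Other G1 regulators, p53 targets and growth factor and Wnt genes had medians of -0.04, -0.03 and -0.03, with none called and 1, 3 and 2 at that unadjusted p. B and plasma cell markers were negative in 4 of 4 cases (median -0.58) and T and NK cell markers in 3 of 3 (-0.47). Other lists leaned negative too, among them goblet cell (6 of 6, -0.27), Paneth cell (4 of 4, -0.22) and crypt markers (5 of 6, -0.21). Stellate cell and fibroblast markers were negative in 5 of 6 cases (-0.13). Hepatocyte, biliary and endothelial lists had positive medians (0.09, 0.21 and 0.02). No marker was called, and their part in the members' values was not tested.

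Ccnd1 was the member whose response differed between tissues and between models. With liver and duodenum in 1 fit, the diet effect was 2.05 in liver and 0.04 in duodenum, a difference of 2.00 (SE 0.32, adjusted p = 0.0207, limma), in a test that called 0.902% of 12971 probes and 1 of 21 members. In liver the diet effect of 2.15 exceeded the Hfe effect of -0.35 by 2.50 (SE 0.37, adjusted p = 0.0151), where 0.896% of 16288 probes and 1 of 22 members were called. Both differences lost their call without liver control diet replicate 1, at 1.74 (adjusted p = 0.115) and 2.23 (adjusted p = 0.0972), and the first also without duodenum iron diet replicate 1 (adjusted p = 0.0503) or control diet replicate 2 (adjusted p = 0.0738). Mcm4, with 0.59, was next in liver (adjusted p = 0.068). No member differed between tissues in its Hfe effect (0 of 20, against 0.00797% of probes), nor between models in duodenum (0 of 32, against 0.00541%), while 6 and 3 members had an unadjusted p below 0.05 (limma), against 9.97% and 9.16% of all probes. In the other tests, 3 of 21 members had such a p for the tissue difference of the diet effect and 9 of 22 for the model difference in liver, against 12.3% and 12.5%. Where no member was called, the lowest adjusted p was 0.21 for Cdk4 (limma, Hfe effect between tissues) and 0.22 for Rrm1 (models in duodenum).

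The untreated mice of the experiments differed in their level of Ccnd1, with log2 signals of 9.29 and 10.13 in wild-type against 8.25 and 8.80 in control diet livers, and 10.16 and 10.28 against 8.91 and 9.49 in duodena. Crypt markers in duodenum, of which 6 of 7 with a probe were detected, summed to 9994 to 14990 in the Hfe experiment and 2959 to 4233 in the diet experiment. Experiment, age and food cannot be told apart here, so that no treated group was set against the controls of the other experiment.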

How the data were processed

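Per the labels, total RNA was amplified and biotin-labelled, and hybridised to Illumina Sentrix Mouse-6 BeadChips. The file the authors deposited gives the mean bead intensity of each probe on a linear scale, neither background-subtracted nor normalized, with a detection p-value against negative controls; it had 46643 entries, and 11 duplicated identifiers were averaged. The authors' normalized log2 values, deposited as a second table, correlated with the intensities at 0.987 or more in liver, where the columns of Hfe-/- replicates 1 and 2 were exchanged, and at 0.00596 to 0.0111 in duodenum, so they served only as an alternative in liver. Their column medians were 6.45 and 6.27 in the Hfe and diet comparisons of liver and 6.66 and 6.46 in those of duodenum.

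Intensities were quantile-normalized within a tissue and log2-transformed, with no background correction. The test took probes whose detection p was below 0.05 on 2 or more arrays of the comparison, and used limma 3.58.1 (R 4.3.3, lmFit and eBayes), separately in each of the 4 comparisons, with Benjamini-Hochberg adjustment over all probes tested. Depth is not defined for arrays, and 2 or 3 arrays a group limit the precision. Gene symbols came from the platform annotation, matched to RefSeq by accession for 26077 probes and by gene ID for 3856; 29976 probes had 1 symbol, 10 several and 16646 none here. Groups came from the sample titles. The members, the related gene lists and the marker lists were chosen with earlier results of these data known. Members past the threshold, the 4 of lowest p in each comparison, and Ccnd1, Cdkn1a, Pcna and Cdk1 are given in full. The script was tested on simulated data. Alternatives were another scaling, background correction, detection filter, prior, joint fit, probe, replicate block and each array left out. The sources used here give no chip position or scan batch. The study's own selection rule, a standard deviation in the top 0.6% with a 1.4-fold change, took probes of Mcm6 in Hfe-/- liver and of Ccnd1 and Cdkn1a in iron-fed liver, and no member probe in duodenum.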

Additional observations from a re-analysis of the deposited data

Results flagged for a closer look

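The diet effect on Ccnd1 differed between liver and duodenum by 2.00 on the log2 scale, in a test of the difference itself (limma, adjusted p = 0.0207). It was higher in 3 of 3 iron-fed livers than in both control livers, and in duodenum the iron-fed mice lay between the controls.

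The effect of the diet on Ccnd1 in liver differed from that of Hfe deficiency by 2.50 on the log2 scale, also in a test of the difference (limma, adjusted p = 0.0151). Both values rest in part on liver control diet replicate 1, as given above.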

How the results depend on the processing

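No member changed its call under another scaling, background correction, filter, prior, joint fit or block in the 4 comparisons: Ccnd1 in iron-fed liver was called under each, and no other member was. Leaving out arrays changed that. In iron-fed liver 0 to 2 members were called (0 without control replicate 1, and Ccnd1 with Cdkn1a without control replicate 2), the tissue difference of the diet effect called 0 to 2 members and the difference between diet and Hfe effects in liver 0 to 3. With an array left out, a lone mouse in a group is assumed to vary like the other group.

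The count over all probes moved more. In Hfe-/- liver it was 9 with median scaling, 1 with quantile normalization of the comparison alone, 0 with probes detected on every array, 25 with no filter, 8 with all groups in 1 fit, 11 with a trended and robust prior, 1 with the authors' values, and 1 (without wild-type replicate 2) to 16 (without Hfe-/- replicate 2) with an array left out. In iron-fed liver it was 81 with median scaling, and 28 to 448 without iron diet replicate 2 and without iron diet replicate 1. In Hfe-/- duodenum it was 0 with median scaling or the stricter filter and 0 to 35 with an array left out, the latter without wild-type replicate 1. In iron-fed duodenum it was 0 with median scaling, 109 with no filter, 44 in 1 fit and 0 to 126 with an array left out. Under median scaling the split of higher and lower calls was 2 and 7 in Hfe-/- liver and 38 and 43 in iron-fed liver. Between the tissues it was 3753 and 4058.

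The members' median in Hfe-/- liver was -0.20 with probes detected on every array, -0.0097 with no filter, 0.089 with each gene's second probe and -0.20 to -0.035 with an array left out. In iron-fed liver it was -0.021 with the second probe and 0.013 to 0.089 with an array left out. In Hfe-/- duodenum it was -0.041 with median scaling and -0.083 with the second probe, and in iron-fed duodenum 0.076 with the second probe and -0.10 to 0.089 with an array left out. Between tissues, 12 members were called with probes detected on every array, by construction from fewer genes, with a median of 0.56, and the median was 0.52 with no filter. Cdc6 lost its tissue call in 2 of 14 settings (adjusted p up to 0.103, limma) and Mcm6 in 1 of 15 (0.0626).

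Directions that turned belonged to values near 0, to second probes or to Ccnd1 in Hfe-/- liver. In Hfe-/- duodenum Cdk1 was 0.056 with median scaling and -0.21 to 0.032 with an array left out, the second probes gave -0.049 for Cdk4, -0.25 for Ccnd1 and 0.43 for Cdkn1a, and Ccnd1 ranged from -0.27 to 0.28. In Hfe-/- liver Ccnd1, at -0.35 with all arrays, ranged from -0.77 to 0.067 with an array left out. It turned only without wild-type replicate 2. In iron-fed duodenum Cdk1 was 0.0031 with median scaling, and with an array left out the ranges were -0.042 to 0.0070 for Cdk1, -0.068 to 0.18 for Cdkn1a, -0.0075 to 0.12 for Pcna and -0.25 to 0.32 for Ccnd1. Pcna between tissues was -0.21 in wild-type mice alone and -0.064 to 0.077 with an array left out. The cause was not tested.

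Replicate numbers did not pair the mice: same-numbered deviations correlated at -0.46 to 0.152. With a replicate block, 9 probes were called in Hfe-/- liver and 0 in Hfe-/- duodenum, and in iron-fed duodenum Cdkn1a was -0.068, Pcna -0.0075 and Cdk1 0.0070. A crossed replicate block in Hfe-/- duodenum, chosen after seeing the data, called 57 probes and 0 members. Weak signals near background bound what could be seen of the mitotic genes in liver, and groups of 2 or 3 mice limit every test.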
